A study of Mus musculus with 8 samples.

Results

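The type I interferon response genes of a NanoString panel were followed in myeloid cells from lungs of tumour-bearing mice. They were taken by name: Irf7, Usp18, Mx1, Siglec1 and Isg15, together with every row whose name starts with Ifit or Oas and then a digit. This gave 7 of the 754 genes in the table, since 2 Ifit rows (Ifit1bl1 and Ifit1bl2) and 0 such Oas rows were found. The 24 Balb/c mice carried grafts of 4T1, a metastatic line of mouse breast cancer. From 10 days after grafting they were given DSHN, which activates the nuclear receptor NR0B2, or DMSO as the placebo, daily for 7 days, and the labels list a dose of 10 mg/kg for both groups. Each sample pooled lungs from 3 mice given one treatment, and cells were isolated with CD11b and CD11c beads, which gave 4 DMSO pools and 4 DSHN pools. All groups carried the tumour graft, and the age, sex and genotype of the mice are not given in the sources used here.

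Type I interferons are secreted when a cell senses nucleic acids of a virus, of damaged cells or of tumour cells. They bind the receptor formed by IFNAR1 and IFNAR2 and, through the kinases JAK1 and TYK2, activate a complex of transcription factors, IRF9 among them, that binds interferon-stimulated response elements in the promoters of target genes. IRF7 is both a target and a regulator, as it drives further interferon production. ISG15 is a ubiquitin-like protein that is attached to other proteins, and USP18 removes it and also dampens signalling at the receptor. MX1 and the IFIT proteins act against viruses inside the cell, and Siglec-1 (CD169) is a sialic acid-binding adhesion receptor of macrophages that monocytes gain after exposure to interferon.

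The promoters of members are shown because these genes are known to share the response element. Of the 7 members, 4 had a window of 250 bases before to 50 bases after a transcription start in the RefSeq table of GRCm38.p6, Isg15, Irf7, Ifit1bl1 and Ifit1bl2. The core of the response element was searched on both strands as GAAA, any 2 bases and GAAA, and matches stand in capitals. It was found in 3.44% of all 32851 windows of the table, and in windows of 6.05% of the 413 tested genes that had one. The first sequence is Isg15 (chr4:156200769-156201068, minus strand), the second Ifit1bl2 (chr19:34640694-34640993, minus strand) and the third Ifit1bl1 (chr19:34601919-34602218, minus strand), each written 5′ to 3′ along the gene.
Isg15: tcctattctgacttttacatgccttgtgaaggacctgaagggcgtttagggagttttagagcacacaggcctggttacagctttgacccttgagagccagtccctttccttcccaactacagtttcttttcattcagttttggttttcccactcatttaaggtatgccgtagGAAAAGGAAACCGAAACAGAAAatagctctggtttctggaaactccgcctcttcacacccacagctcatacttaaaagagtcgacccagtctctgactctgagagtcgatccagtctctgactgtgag
Ifit1bl2: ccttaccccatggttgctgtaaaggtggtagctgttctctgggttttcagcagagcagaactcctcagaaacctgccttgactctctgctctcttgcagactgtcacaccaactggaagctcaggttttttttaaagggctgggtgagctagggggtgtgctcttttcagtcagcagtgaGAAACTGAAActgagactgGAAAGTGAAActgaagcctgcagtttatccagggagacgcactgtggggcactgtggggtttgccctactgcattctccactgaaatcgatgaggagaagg
Ifit1bl1: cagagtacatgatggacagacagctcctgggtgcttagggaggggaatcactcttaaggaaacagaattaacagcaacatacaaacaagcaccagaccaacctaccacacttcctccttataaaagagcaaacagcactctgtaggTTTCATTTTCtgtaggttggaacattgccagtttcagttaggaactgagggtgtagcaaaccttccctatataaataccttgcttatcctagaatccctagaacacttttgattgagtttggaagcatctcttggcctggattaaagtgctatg
The Isg15 window held 3 matches that overlap, from base -78 to base -57 before the start. Both Ifit genes had 2 windows in the table, of which the one farther upstream is shown. The Ifit1bl2 window shown held 2 separate matches, from -70 and from -51, and both continued as a longer form that adds CT at its end, which was in 0.271% of all windows, and its other window held 0. The Ifit1bl1 window shown held 1 match on the opposite strand, from -104 to -95, and its other window 1, also on the opposite strand, from -23 to -14. These letters were not in the Irf7 window. A match describes the sequence of the reference strain and is no evidence of binding in these cells.

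In RefSeq, Irf7 lies on chromosome 7 (141263183 to 141266499), Isg15 on chromosome 4 (156199424 to 156200818), Usp18 on chromosome 6 (121245906 to 121270917) and Siglec1 on chromosome 2 (131067801 to 131086778), all as protein-coding genes of GRCm38.p6. Mx1 on chromosome 16 (97447035 to 97462906) is listed there as a transcribed pseudogene, and many inbred laboratory strains are known to carry a defective Mx1 allele. Ifit1bl1 (34592888 to 34662981) and Ifit1bl2 (34617046 to 34640827) overlap on chromosome 19 and are related copies, so a probe for one could also bind RNA of the other. Probe sequences were not used here.

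Levels are given as log2 values relative to the mean of Oaz1, Ppia, Rpl19 and Tubb5, 4 housekeeping genes, in the same pool, shifted back to their mean over all pools. Since every gene of a pool carries the same spike-in factor, that factor cancels on this scale. Counts recovered from the deposited values summed to 533100 to 923800 in 7 pools and to 123700 in DSHN 1. The background limit of a pool was set from its 8 negative-control probes, at their mean plus 2 SD in counts, which on the level scale is 3.77 to 5.12 in 7 pools and 7.69 in DSHN 1. Of the members only Isg15 was above background in DSHN 1, so the DSHN 1 levels of the other 6 carry no information beyond that limit. DMSO 1 stands apart in another way: of the 554 genes tested, 12.6% were higher there than in any other pool by 1 or more on the log2 scale, and its positive-control spike-ins had a geometric mean of 562.6 counts, against 3281 to 6392 in the other pools. Results are therefore given with and without DMSO 1, and with and without DSHN 1 where it matters.

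The labels name the samples dendritic cells. Among the markers of conventional dendritic cells, Itgax and Cd83 were above background in 8 of 8 pools, Batf3 and Ccr7 in 7 (all but DSHN 1), Flt3 in 2, Clec9a in 1 and Xcr1 in 0, while 6 of 8 neutrophil markers were above background in all 8, S100a8 among them. Of 8 markers of monocytes and macrophages, 6 were also above background in all 8 pools. Since only part of the dendritic cell list was detected, beside neutrophil and macrophage markers, the samples are called myeloid pools here. In pools of this kind, more cells of a type and more RNA per cell cannot be told apart.

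The interferon response genes were high in one placebo pool, DMSO 1. Over the other 7 pools Irf7 spanned 0.65 and Siglec1 0.41 on the log2 scale, Isg15 1.07, Usp18 1.58 and Mx1 2.31. Relative to the mean of DMSO 2, 3 and 4, DMSO 1 was higher by 3.81 on the log2 scale for Irf7 (14-fold), 3.47 for Usp18 (11-fold), 2.25 for Isg15 (4.75-fold), 1.60 for Mx1 (3.03-fold) and 1.59 for Siglec1 (3.01-fold). All 5 tested members were thus higher there by 1 or more, against 27.1% of the 554 genes, and their median was 2.25 against 0.39 for all tested genes. DSHN and DMSO did not differ past the threshold for any member, and the sign of the difference for Irf7, Isg15 and Usp18 turned when DMSO 1 was left out.

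**Figure D1:**
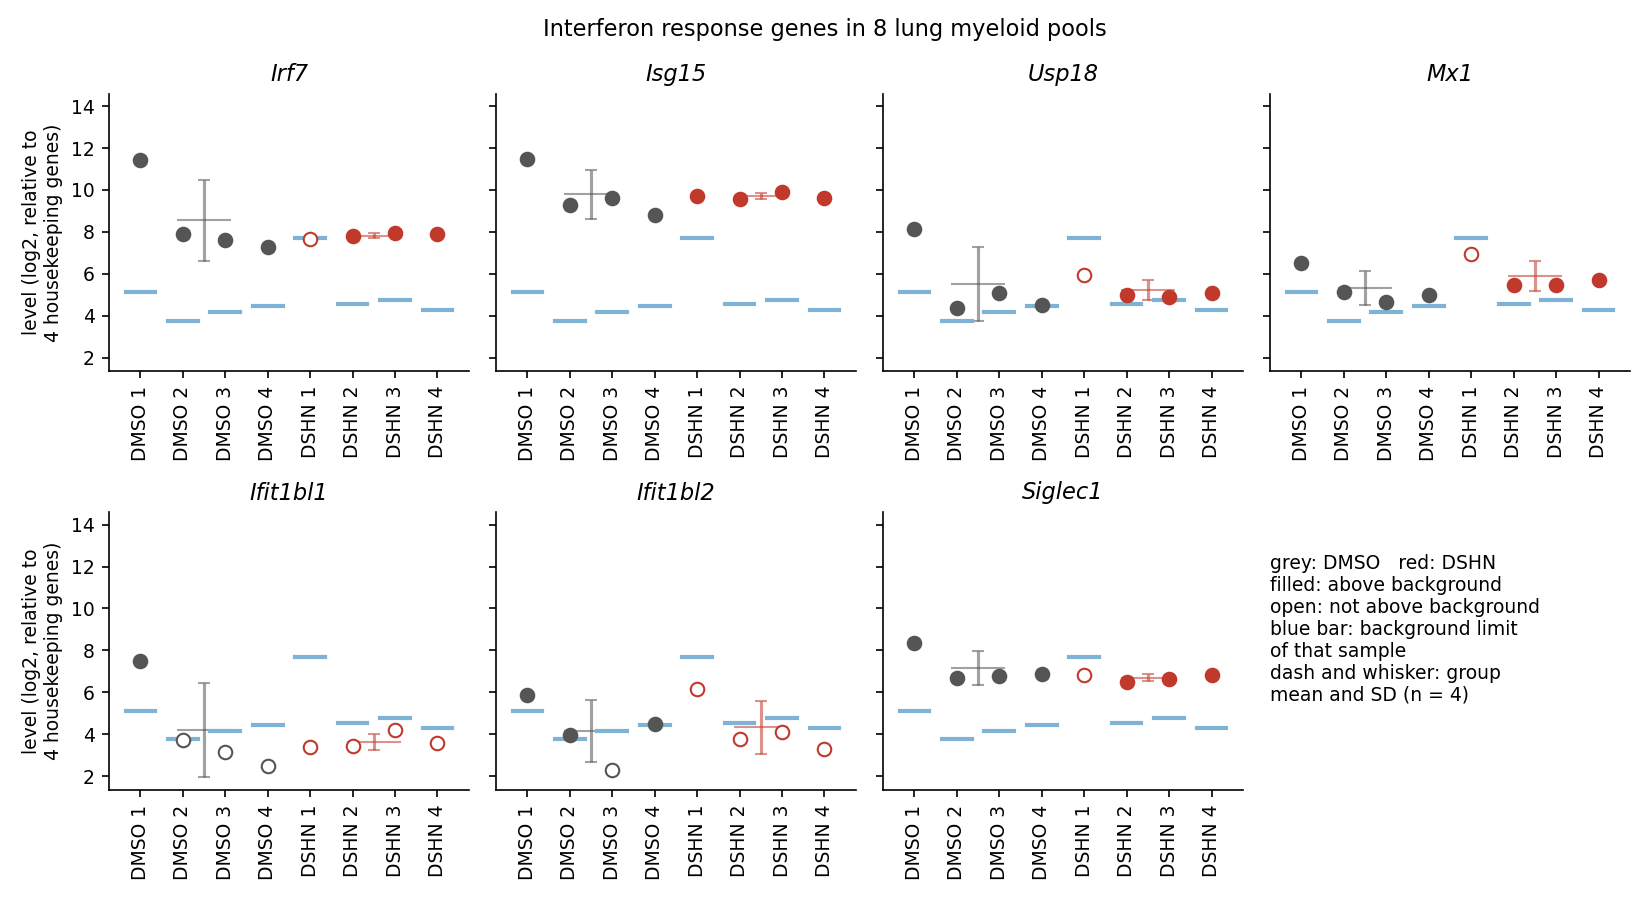
Level of each of the 7 members (vertical axis, log2 relative to 4 housekeeping genes) in the 8 pools (horizontal axis), grey for DMSO and red for DSHN, with the group mean and SD (n = 4 each), open points for values not above background and a blue bar at the background limit of each pool. Irf7, Isg15, Usp18, Ifit1bl1 and Siglec1 are highest in DMSO 1, and the limit of DSHN 1 lies at 7.69, above most of its values.

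Irf7, the regulator that amplifies interferon production, had levels of 11.41, 7.88, 7.62 and 7.30 in DMSO 1 to 4 and of 7.66, 7.78, 7.94 and 7.88 in DSHN 1 to 4. The recovered counts behind them were 2116, 362, 243 and 170 in DMSO and 39, 246, 214 and 215 in DSHN. DMSO 1 exceeded every other pool by at least 3.46, the third-widest such gap among the 554 genes tested, while the other 7 pools spanned 7.30 to 7.94 and the groups overlapped. The count of 39 in DSHN 1 lay just under the limit of 40.04 (95% Poisson interval of the count 27.7 to 53.3, counting error only). The DMSO mean was 8.55 ± 1.92 and the DSHN mean 7.81 ± 0.12 (SD, n = 4 each). DSHN minus DMSO was -0.74 with a 95% interval of -2.48 to 1.004 (limma with Benjamini-Hochberg adjustment, adjusted p = 0.925). Without DMSO 1 the difference was 0.22, with an interval of -0.23 to 0.67, and without DMSO 1 and DSHN 1 it was 0.27.

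Isg15, the ubiquitin-like modifier, was the only member above background in all 8 pools. Its levels were 11.49, 9.30, 9.61 and 8.82 in DMSO 1 to 4 and 9.71, 9.56, 9.88 and 9.63 in DSHN 1 to 4, from counts of 2236, 969, 965 and 488 in DMSO and 162, 843, 822 and 725 in DSHN. DMSO 1 was again the highest pool and DMSO 4 the lowest, and the DSHN pools lay inside the DMSO range. The DMSO mean was 9.80 ± 1.17 and the DSHN mean 9.69 ± 0.14 (SD, n = 4 each), and their difference was -0.11 with an interval of -1.21 to 0.99 (limma, adjusted p = 0.980). Without DMSO 1 it was 0.45, with an interval of -0.01 to 0.92 (limma, adjusted p = 0.899), and without DMSO 1 and DSHN 1 it was again 0.45. DMSO 3 at 9.61 then lay within the DSHN range.

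Usp18, the protease that removes ISG15, had levels of 8.13, 4.38, 5.09 and 4.53 in DMSO 1 to 4 and of 5.96, 4.97, 4.90 and 5.08 in DSHN 1 to 4. The counts were 218, 32, 42 and 25 in DMSO and 12, 35, 26 and 31 in DSHN, so that outside DMSO 1 the gene was near background and in DSHN 1 under it. DMSO averaged 5.53 ± 1.76 and DSHN 5.23 ± 0.49 (SD, n = 4 each), and the difference was -0.30 with an interval of -2.02 to 1.41 (limma, adjusted p = 0.962). It was -0.55 without DSHN 1, 0.56 without DMSO 1 and 0.32 without both.

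Mx1 encodes an antiviral GTPase where the gene is intact. Its levels were 6.51, 5.11, 4.65 and 4.98 in DMSO 1 to 4 and 6.96, 5.48, 5.48 and 5.71 in DSHN 1 to 4, and the highest of these, in DSHN 1, rests on 24 counts that lie under the limit of that pool. The other counts were 71, 53, 31 and 34 in DMSO and 50, 39 and 48 in DSHN, all low, and among these 7 pools DMSO 1 had the highest level. DMSO averaged 5.31 ± 0.82 and DSHN 5.91 ± 0.71 (SD, n = 4 each), and the difference was 0.60 with an interval of -0.50 to 1.70 (limma, adjusted p = 0.925), or 0.25 without DSHN 1. Without DMSO 1 the 4 DSHN values lay above the 3 DMSO values. The same was true of 6.32% of the genes tested (7.22% with either direction counted). The value of DSHN 1 shows only that its level was not above 7.69, so this order rests on DSHN 2, 3 and 4. Without DMSO 1 but with the DSHN 1 value, the difference was 0.996 with an interval of 0.05 to 1.94 (limma, adjusted p = 0.899). It was 0.65 without DSHN 1 as well (limma, adjusted p = 0.920). Over all settings tried, the adjusted p of Mx1 ranged from 0.150 to 1.0.

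The Ifit copies, which belong to a family of RNA-binding antiviral proteins, were near or under background in most pools. Ifit1bl1 had counts of 142, 20, 11 and 6 in DMSO 1 to 4 and of 2, 12, 16 and 11 in DSHN 1 to 4, and only DMSO 1 exceeded its limit. Its level there was 7.51, against 2.47 to 4.2 in the other pools. Ifit1bl2 had counts of 45, 24, 6 and 24 in DMSO and of 14, 15, 15 and 9 in DSHN. These were above the limit in 3 of 4 DMSO and 0 of 4 DSHN pools. The 24 counts of DMSO 2 and DMSO 4 lay close to their limits of 20.99 and 23.58. Its levels overlapped between the groups, at 2.28 to 5.85 in DMSO and 3.3 to 6.18 in DSHN. The share of all genes with such a split was not counted. Neither gene reached a deposited value of 20 in at least 4 pools, so neither was tested, and no difference between the groups is given.

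Siglec1, the macrophage adhesion receptor, had levels of 8.36, 6.66, 6.76 and 6.89 in DMSO 1 to 4 and of 6.83, 6.48, 6.62 and 6.84 in DSHN 1 to 4. The counts were 255, 155, 134 and 128 in DMSO and 22, 100, 86 and 105 in DSHN, with DSHN 1 under its limit. DMSO 1 lay 1.47 above the next pool, and the other 7 fell within 6.48 to 6.89. DMSO averaged 7.16 ± 0.80 and DSHN 6.69 ± 0.17 (SD, n = 4 each), and the difference was -0.47 with an interval of -1.31 to 0.36 (limma, adjusted p = 0.925), or -0.08 without DMSO 1. Unlike Irf7, Isg15 and Usp18, its sign did not turn in any setting tried.

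Counted together, 4 of the 5 tested members had a lower mean in DSHN, against 46.6% of the 554 genes, and Mx1 a higher one. The median difference of the 5 was -0.30, against 0.03 for all genes tested. By limma and Benjamini-Hochberg adjustment 0 of 5 passed, against 0.0% of all genes, and 0 had an unadjusted p under 0.05 (3.61% of all genes). The groups did not separate for any of the 5, and did so for 3.25% of the genes. Without DMSO 1, 4 of 5 had a higher mean in DSHN and Siglec1 a lower one, when 69.3% of all genes were higher, with a median of 0.45 against 0.13. Then 0 of 5 passed (0.0% of all genes), and Mx1 alone had an unadjusted p under 0.05 (4.15% of all genes). Without DSHN 1 as well, 4 of 5 had a higher mean in DSHN, as did 330 of the 554 genes. The median of the 5 was then 0.32, against 0.06 for all genes tested. All 5 had passed the filter on low values in both groups, with values of 20 or more in 4 of 4 DMSO and at least 3 of 4 DSHN pools.

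**Figure D2:**
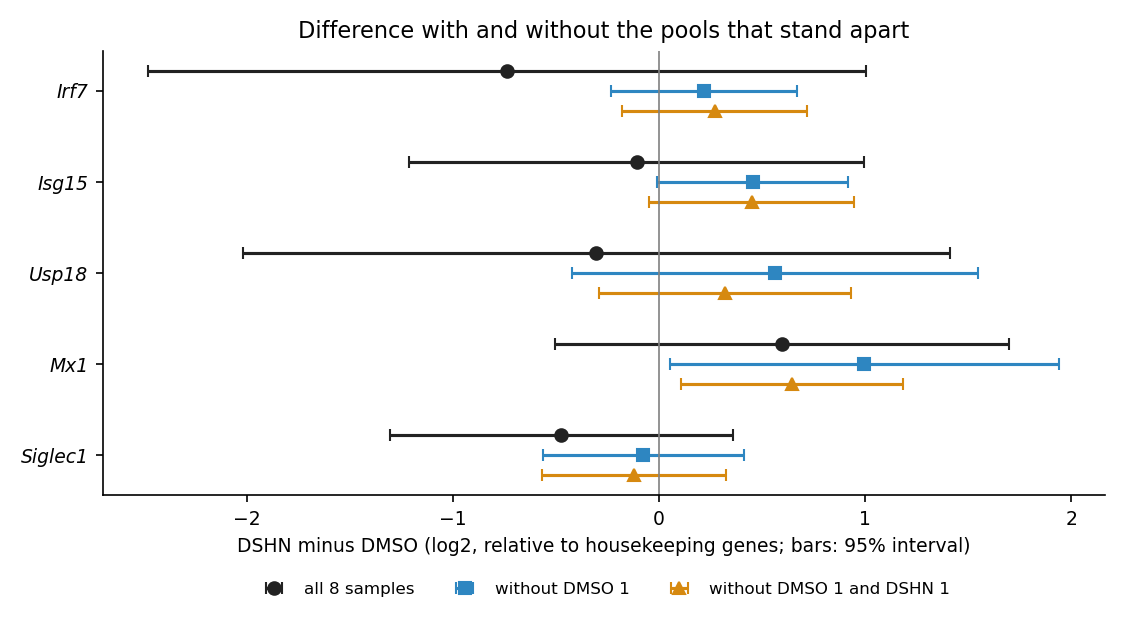
Difference DSHN minus DMSO (horizontal axis, log2 relative to housekeeping genes, with 95% intervals) of the 5 tested members (vertical axis), over all 8 pools, without DMSO 1, and without DMSO 1 and DSHN 1. For Irf7 it moves from -0.74 to 0.22 and for Usp18 from -0.30 to 0.56 when DMSO 1 is left out, and the intervals narrow.

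The gap between DMSO 1 and the rest was wide for the members, but not for them alone. DMSO 1 was the highest of the 8 pools for 4 of the 5 tested members, against 39.9% of the genes, and for the same 4 it exceeded every other pool by 1 or more, against 12.6%. Ranked by the difference from the other DMSO pools among the 554 genes, Irf7 was number 8, Usp18 number 13, Isg15 number 36, Mx1 number 74 and Siglec1 number 76. Cell type markers moved with it. The 8 markers of monocytes and macrophages were all above background in DMSO 1. Their summed level per 1000 counts of the 4 housekeeping genes was 2125 there. In the other DMSO pools it was 935 to 1264, and in DSHN 1058 to 1431. Of the 8, 6 were highest in DMSO 1, while Mertk was lowest there (6.76 against 7.05 to 7.97 elsewhere). Cd14 had the most counts of the 8 (9926 in DMSO 1). Summed neutrophil markers, mostly S100a8 and S100a9, stood at 19648 in DMSO 1, 9068 to 12005 in the other DMSO pools and 7868 to 16885 in DSHN. Mpo and Elane were above background in 0 pools. Alveolar macrophage markers (4 genes) were low, at 624.8 against 1385 to 2905 in the other DMSO pools and 604.4 to 3140 in DSHN. Most of that sum was Chil3, and of the 4 genes only Pparg (5.17) was lowest of all pools in DMSO 1. Conventional dendritic cell markers (7 genes) stood at 202.2 against 260.3 to 297.4 and 259.1 to 289.1. Within the dendritic cell list Itgax was low in DMSO 1 (7.53 against 9.06 to 9.87 elsewhere), whereas Cd83 was highest there (10.74) and Batf3 lay above the other DMSO pools (6.47 against 4.55 to 5.06). Of the genes listed as markers of plasmacytoid dendritic cells, which make much type I interferon, only Ccr9 and Il3ra were in the table. Their sum was 15.9 in DMSO 1, 10.6 to 12.3 in the other DMSO pools and 11.2 to 28.7 in DSHN. The 28.7 is that of DSHN 1, where both genes were under background, and the other DSHN pools reached 12.5, below DMSO 1. Most of the sum in DMSO 1 came from Il3ra (113 counts), which is best known as a marker of these cells in humans. Ccr9 had 27 counts there, at the limit of 26.98. The sum is therefore no measure of these cells. Markers of T, NK, B, endothelial and epithelial cells were few (1, 1, 1, 2 and 1 genes). The sums of 3 of these lists did not overlap between the treatment groups. For single genes tested the share was 3.25%, which is not the same measure as a sum over a list of low genes. The T cell marker Cd247 stood at 1.36 to 3.33 in DMSO and 4.04 to 20.5 in DSHN, the endothelial sum at 2.72 to 4.93 and 5.45 to 28.7, and the epithelial marker Cdh1 at 8.87 to 15.3 and 15.5 to 19.4. The NK cell marker Nkg7 (3.45 to 4.89 and 3.67 to 11.1) and the B cell marker Ms4a1 (6.89 to 7.72 and 7.34 to 15.2) overlapped between the groups. No gene of the 5 lists was above background in DSHN 1, and among the DMSO pools Cdh5 was above it in 1, Cd34 in 2 and Cd247 in 3. The part of all these cell types in the levels of the members was not tested.

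**Figure D3:**
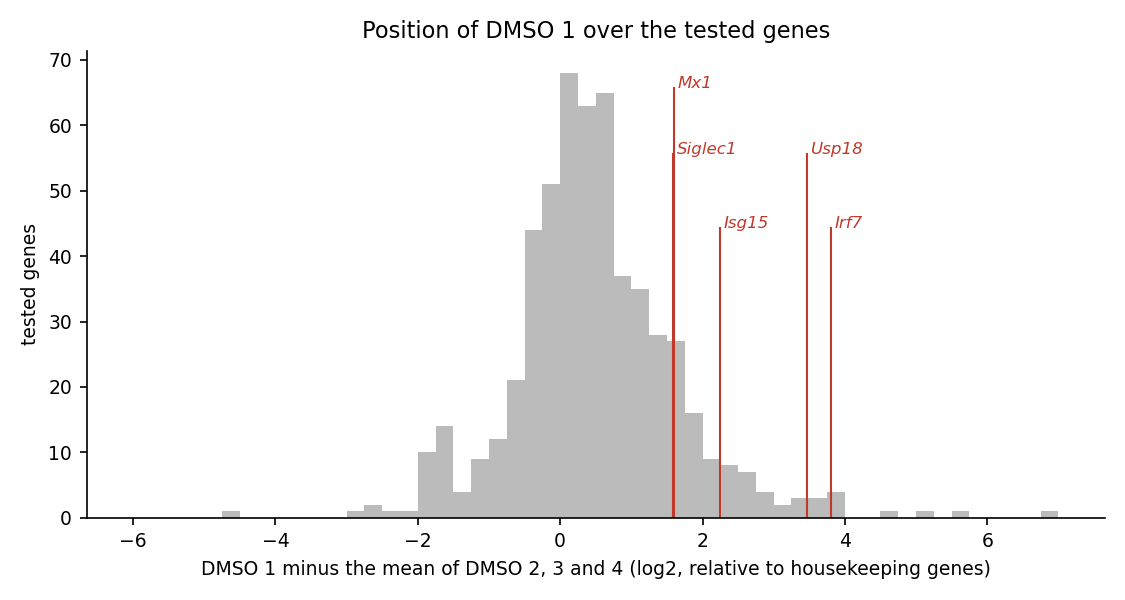
Number of tested genes (vertical axis) by their difference between DMSO 1 and the mean of DMSO 2, 3 and 4 (horizontal axis, log2 relative to housekeeping genes), with red lines at the 5 tested members. The genes centre on 0.39, and the members lie between 1.59 (Siglec1) and 3.81 (Irf7).

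Covariation was measured with Isg15 as the anchor, since Irf7 missed the background limit in DSHN 1 and Isg15 had the highest mean among the other members. All levels of a pool share its housekeeping denominator and its depth, and over the 553 other genes the median Pearson r with Isg15 was 0.33. The r was 0.95 for Irf7 (exact permutation p = 0.00848, adjusted p = 0.129) and Spearman's rho was 0.68 (exact permutation p = 0.0701). For Usp18, r was 0.93 (exact permutation p = 0.00667, adjusted p = 0.129) and rho was 0.71 (p = 0.0576, exact permutation). For Siglec1, r was 0.85 (exact permutation p = 0.0977, adjusted p = 0.285) and rho only 0.19 (p = 0.665, exact permutation), and for Mx1, r was 0.58 (exact permutation p = 0.138, adjusted p = 0.324) and rho 0.74 (p = 0.0458, exact permutation). Without DSHN 1, where Mx1 was under background, its r was 0.84 (exact permutation p = 0.0319, adjusted p = 0.148). After Benjamini-Hochberg adjustment over all 553 genes, 0 of these 4 members and 0.0% of the genes passed, and 2 of the 4 had an unadjusted p under 0.05, against 24.6% of the genes.

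Isg15 lay farthest from its median in DMSO 1 and DMSO 4. Without these pools r was 0.03 for Irf7, 0.53 for Usp18, 0.14 for Siglec1 and 0.35 for Mx1. Leaving out the extremes of the anchor itself narrows its range, which tends to lower r. These values therefore cannot show whether the relations held. Without DMSO 1 alone r was 0.74 for Irf7, 0.59 for Usp18, 0.43 for Mx1 and -0.37 for Siglec1. Each had an exact permutation p above the threshold (lowest p = 0.0726). Without DMSO 1 and DSHN 1 it was 0.81 for Irf7 and 0.71 for Usp18 (exact permutation p = 0.0639 and 0.0903). Over the 10 pairs of the 5 members the median r was 0.88 with all 8 pools, against 0.19 over all pairs of tested genes, and 0.20 against 0.16 without DMSO 1, when single pairs ranged from -0.56 to 0.81. The pair at 0.81 was Mx1 and Usp18, whose levels in DSHN 1 were both under background, and without DSHN 1 too it stood at 0.26.

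**Figure D4:**
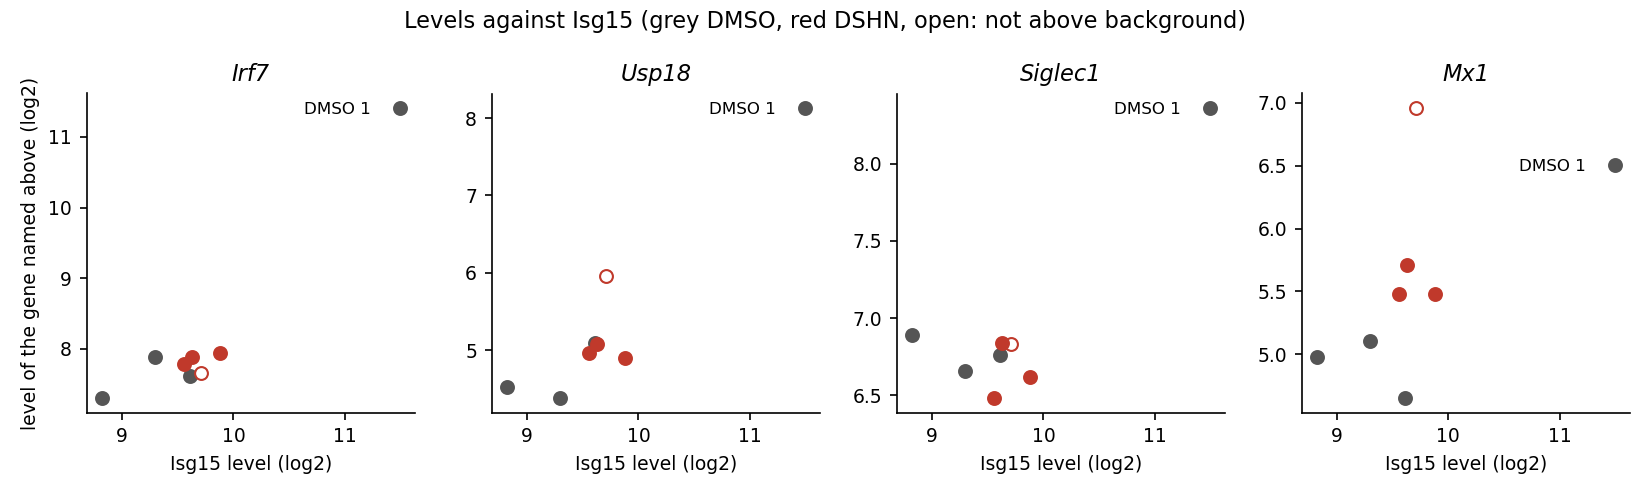
Level of Irf7, Usp18, Siglec1 and Mx1 (vertical axes, log2) against the level of Isg15 (horizontal axes, log2) in the 8 pools, grey for DMSO, red for DSHN and open where the gene on the vertical axis was not above background. DMSO 1, at 11.49 for Isg15, lies apart from the other 7 pools in all 4 plots.

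The 5 other genes of the table most like Isg15 over the 8 pools were Ccl5 (r = 0.97), a chemokine for T cells and monocytes, Ccl12 (r = 0.97), a monocyte chemokine, C3ar1 (r = 0.97), the receptor for complement C3a, Marcksl1 (r = 0.97), a MARCKS-related protein, and Il1r2 (r = 0.96), the decoy receptor for interleukin 1. Their rho was 0.60, 0.62, 0.93, 0.79 and 0.69, and none passed after adjustment (adjusted p = 0.129 for each, exact permutation of r over 8 pools). Without DMSO 1 and DMSO 4 their r was 0.77, 0.12, 0.53, 0.81 and 0.30 in the same order, and without DMSO 1 alone it was 0.83, 0.84, 0.83, 0.95 and 0.77. Marcksl1 ranked number 1 of the 553 genes by r without DMSO 1, and C3ar1 number 1 by rho over the 8 pools.

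The rest of the interferon pathway was read from lists by role. For comparison with the counts of each list, 46.6% of all genes had a lower mean in DSHN, with a median difference of 0.03. Without DMSO 1, 69.3% had a higher mean, with a median of 0.13. The ligands on the panel, Ifna1, Ifnb1 and Ifng, were above background in 0 of 8 pools, DMSO 1 included. Their counts were 9 to 20 for Ifna1, 7 to 21 for Ifnb1 and 5 to 15 for Ifng, so no level of these ligands was detectable at this depth. Other interferon alpha genes were not analysed here.

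Among receptors and signalling genes, 3 are reported, of which 1 had a higher and 2 a lower mean in DSHN and 0 passed (limma, adjusted p from 0.925 to 0.938). The median difference was -0.21, or 0.03 without DMSO 1. Ifnar2, a chain of the type I receptor, had levels of 9.25, 8.04, 7.89 and 7.96 in DMSO 1 to 4 and of 8.26, 7.75, 7.84 and 8.12 in DSHN 1 to 4, a difference of -0.29 ± 0.32 (SE), or 0.03 without DMSO 1. DMSO 1 was its highest pool, and the groups overlapped. Ifnar1, the other chain of the type I receptor, differed by -0.21 ± 0.23, and Ifngr1, of the interferon gamma receptor, by 0.11 ± 0.23 (SE).

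Of 11 sensors and inducers, 8 had a higher mean in DSHN and 3 a lower one, when 46.6% of all genes had a lower one. Without DMSO 1 it was again 8 and 3, when 69.3% of all genes were higher. The median difference of the 11 was 0.12 (0.03 for all genes), or 0.19 without DMSO 1 (0.13 for all genes). Of the 11, 0 passed (limma, lowest adjusted p = 0.925). Ikbke, the kinase IKK epsilon that activates IRF3 and IRF7, had levels of 9.25, 8.19, 7.95 and 7.70 in DMSO 1 to 4 and of 9.29, 8.80, 8.68 and 8.95 in DSHN 1 to 4. DMSO 1 lay within the DSHN range and the other 3 DMSO pools below it. Without DMSO 1, 6.32% of the genes tested had all DSHN pools above the DMSO pools (7.22% with either direction counted). The difference of Ikbke was 0.66 ± 0.33 (SE), or 0.98 without DMSO 1 (limma, adjusted p = 0.366). Tlr9, a receptor for DNA in endosomes, and Tlr3, a receptor for double-stranded RNA, differed by 0.55 ± 0.49 and 0.59 ± 0.45 (SE), but Tlr3 was above background in only 2 of the DMSO and 1 of the DSHN pools, and Tlr9 was under it in DSHN 1. Tlr8 differed by -0.20 ± 0.24 (SE).

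Among the other interferon-induced genes, 5 were tested, of which 2 had a higher and 3 a lower mean in DSHN. The median difference was -0.01, and 0 passed the threshold (limma, lowest adjusted p = 0.925). All 5 were highest in DMSO 1 (39.9% of all genes), and 4 of them, Cxcl10, Cxcl11, Ccl5 and Ccl8, by 1 or more over every other pool (12.6%). Their median difference between DMSO 1 and the other DMSO pools was 2.54. Ccl8, a monocyte chemokine, had levels of 10.76, 6.14, 6.57 and 4.21 in DMSO 1 to 4 and of 7.28, 8.73, 6.59 and 6.73 in DSHN 1 to 4, with DSHN 1 and DMSO 4 not above background. Cxcl10, a chemokine for CXCR3-bearing T cells, had levels of 9.93, 8.13, 8.78 and 6.58 in DMSO and of 7.37, 8.08, 7.90 and 7.84 in DSHN, with DSHN 1 under background. The groups overlapped for both, and the differences were 0.41 ± 1.17 for Ccl8 and -0.56 ± 0.59 (SE) for Cxcl10. Cxcl11, another CXCR3 ligand, differed by 0.21 ± 0.68 and Ccl5 by -0.26 ± 0.51 (SE). Without DMSO 1, 4 of the 5 had a higher mean in DSHN, when 69.3% of all genes did, with a median of 0.69, Ccl8 by 1.69 (limma, adjusted p = 0.899), while Cxcl10 stood at -0.03. That median of 0.69 is the value of Mx2, whose level in DSHN 1 was under background, and the median of all tested genes was then 0.13. Without DSHN 1 as well the median of the list was 0.35.

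Of the genes best known for induction by interferon gamma, 7 were tested. In DMSO 1, 5 were highest (39.9% of all genes), and Tap1, the peptide transporter of MHC class I loading, was so by 1 or more (12.6% of all genes), and the median difference from the other DMSO pools was 1.17. In DSHN, 2 had a higher and 5 a lower mean. The median difference was -0.02, or 0.14 without DMSO 1, and 0 passed (limma, lowest adjusted p = 0.925). Tap1 had levels of 9.47, 8.43, 8.29 and 7.14 in DMSO 1 to 4 and of 7.73, 8.16, 8.13 and 8.35 in DSHN 1 to 4, a difference of -0.24 ± 0.42 (SE). Cd274, which encodes PD-L1, differed by -0.38 ± 0.26 and Psmb8, a subunit of the immunoproteasome, by -0.30 ± 0.23 (SE). Nos2, the inducible nitric oxide synthase, differed by 0.90 ± 0.82 (SE) but its count passed the limit in only 1 DMSO pool and 2 DSHN pools. No test compared the lists with each other.

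**Figure D5:**
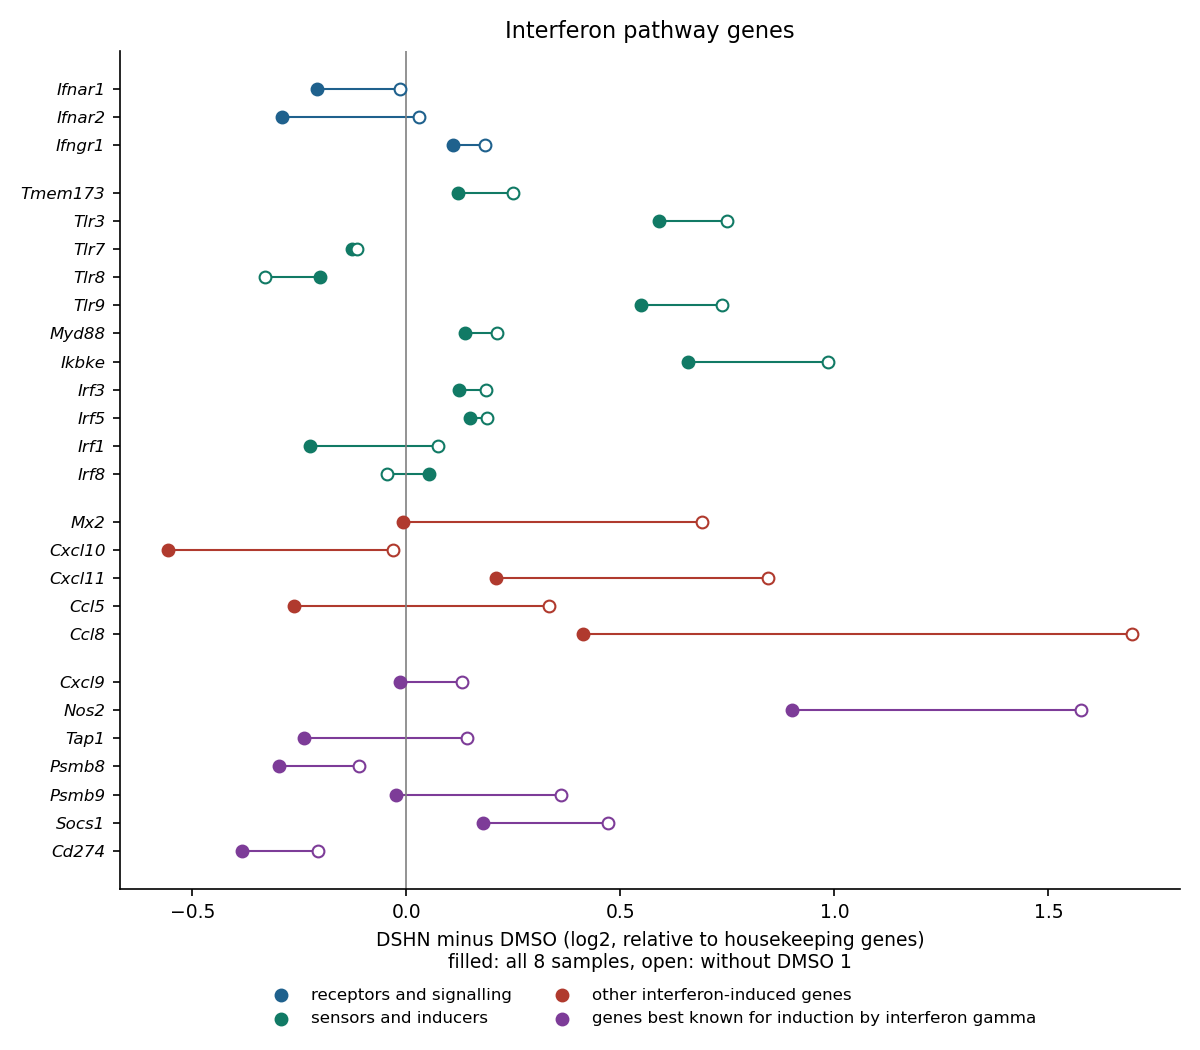
Difference DSHN minus DMSO (horizontal axis, log2 relative to housekeeping genes) of the tested interferon pathway genes (vertical axis, coloured by list), filled over all 8 pools and open without DMSO 1. When DMSO 1 is left out, the median of the other interferon-induced genes moves from -0.01 to 0.69, and that of all tested genes from 0.03 to 0.13. Without DSHN 1 as well the median of the list is 0.35.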

How the data were processed

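The table held 754 genes, 6 positive and 8 negative controls. The authors deposited log2 values, and their software was not named in the sources used here. Gene rows carry a spike-in factor per sample, 0.605 to 6.84, worked out from low values, which are whole multiples of 1 step within 0.00504 (log2). Dividing it out gave the recovered counts, exact only for low values. Differences were tested with limma 3.58.1 in R 4.3.3 (variance trend) on housekeeping-scaled values of 554 genes (those at 20 or above, unlogged, in 4 samples), with Benjamini-Hochberg adjustment at 0.05; correlations by exact permutation in Python 3.11.15. Intervals and limits cover counting error only where so named. Each pool came from separate mice and counted as 1 replicate. All members were named, with up to 4 genes of each pathway list by smallest p and the 5 genes most like Isg15. Mx2 was also named, as the gene at a list median. Members and lists were chosen with earlier results of these data known. The fit was tested on simulated data. No pairing by replicate number was seen (correlation of deviations -0.29 to 0.14, against -0.33 to 0.32 for pools with different numbers). So few pools cannot exclude a pairing. The p-values measure the spread between pools. Promoter windows are those of RefSeq (GRCm38.p6). A gene of the signalling list is not reported here.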

Additional observations from a re-analysis of the deposited data

Results flagged for a closer look

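Within a group of 4 pools, a value was set aside for a closer look where its gap to the nearest other pool, as a share of the group's range, exceeded Dixon's 95% critical value; chance does this in about 1 of 20 groups. This was applied to 26 genes named in the text, in 50 groups, and met in 8. In the DMSO group DMSO 1 was far above the others for Irf7 (0.859), Siglec1 (0.865), Ifnar2 (0.892), Tlr3 (0.899) and Nos2 (0.925), of which Tlr3 was not above background in DMSO 1. The same held for 5.96% of the 554 genes tested. In the DSHN group DSHN 1 was far above the others for Mx1 (0.846) and Usp18 (0.836), both under background there. Psmb8 was lower in DSHN 2 (0.864), with a level of 9.64 against 9.77 to 9.79 in the other DSHN pools.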

How the results depend on the processing

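In every limma setting 0 genes and 0 members passed between DSHN and DMSO, with 4 to 196 genes at an unadjusted p under 0.05, the highest on the deposited scale, where the panel's median was lower in DSHN. The members did not pass with the replicate block either (0 genes, and 11 at an unadjusted p under 0.05). With that block the interval of Mx1 was -0.01 to 1.20 (limma, adjusted p = 0.891). Leaving out 1 pool at a time, the difference ranged from -1.15 to 0.22 for Irf7, -0.44 to 0.45 for Isg15, -0.69 to 0.56 for Usp18, 0.25 to 0.996 for Mx1 and -0.64 to -0.08 for Siglec1. In these, each change of sign came without DMSO 1. It also came without DMSO 1 and DSHN 1 together, at 0.27 for Irf7, 0.45 for Isg15 and 0.32 for Usp18. Without DMSO 1, median centring gave 0.10, 0.34 and 0.45, and scaling without Tubb5 gave 0.28, 0.52 and 0.63, for the same 3 genes, both chosen after seeing the data. With all 8 pools Isg15 stood at 0.04 after quantile normalization, and the cause was not tested. When scaling used only the other 3 housekeeping genes it stood at 0.0625, while the median of all genes went from 0.03 to 0.20. That median was -0.20 with background subtracted. The members then stood at -1.19 for Usp18, -1.01 for Siglec1, -0.92 for Irf7, -0.13 for Isg15 and 0.29 for Mx1. With background not subtracted they stood at -0.30, -0.47, -0.74, -0.11 and 0.60 in the same order. Mx1 stood at -1.30 on the deposited scale, which carries the shift of the panel, a median of -1.87. The exact permutation test per gene, whose smallest p over 70 assignments is 0.0286, could hardly pass adjustment over 554 genes and says nothing on this; 18 genes had an unadjusted p under 0.05. With genes limited to those above background in all samples, Isg15 alone remained of the members. The number of genes correlated with Isg15 past adjustment was 1 after median centring (Marcksl1), 1 with Tubb5 left out (Vav2, negative) and 2 on deviations from group means (Cd84 and Il1r2), and 0 to 3 when 1 pool was left out, the 3 without DSHN 3 (Ccr2, Lat2 and Socs1). The depth of DSHN 1 limits what can be said of 6 of the 7 members there.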
